A study of Mus musculus with 8 samples.

Results

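The 40 genes described here are the core machinery of macroautophagy, measured in the livers of ethanol-fed mice given a virus for the long non-coding RNA H19 or a comparison virus. They were chosen by gene symbol for their role in the pathway, with earlier results of these data known, and are 40 of the 55450 genes in the deposited table. All 40 were expressed well enough to be among the 16672 genes tested. By role they are 5 genes of the ULK initiation complex, 7 of the class III PI3-kinase complexes and their regulators, 5 of phagophore expansion, 6 of the ATG12 and ATG8 conjugation enzymes, 4 ATG4 proteases, 5 ATG8 proteins, 4 ubiquitin-binding cargo receptors, 3 mitophagy receptors and the fusion SNARE Stx17.

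In macroautophagy a membrane sac, the phagophore, grows around cytoplasm and closes into an autophagosome that fuses with a lysosome. The ULK kinase complex starts the process, a PI3-kinase complex marks the membrane with phosphatidylinositol 3-phosphate, WIPI and ATG2 proteins bring in lipid, and a ubiquitin-like conjugation system attaches ATG8 proteins (LC3 and GABARAP) to the membrane, where cargo receptors bind them. In hepatocytes the pathway removes damaged mitochondria, protein aggregates and lipid droplets. Much of its control is post-translational, and messenger RNA levels do not measure the rate at which autophagosomes form or are degraded.

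The study sequenced poly(A) RNA of 8 mouse livers, all on an ethanol diet. AAV-H19, an adeno-associated virus named for H19, was given to 4 mice (livers 25 to 28), and AAV-Null, whose insert the labels do not describe, to the other 4 (livers 21 to 24). The labels used here give no strain, age or sex, no viral dose or promoter, and no group without ethanol or without virus. H19 was at 133, 155, 104 and 121 CPM (counts scaled to library size) in the AAV-H19 livers and at 0.542, 0.142, 0.314 and 1.41 CPM in the AAV-Null livers, so each library's H19 level went with its label (log2 fold change 7.73 ± 0.66, SE, edgeR adjusted p = 0.00134).

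Library totals were 63.7 M to 78.8 M units in AAV-H19 and 78.3 M to 83.0 M in AAV-Null livers. Summed CPM of 10 hepatocyte markers was 118152 to 128008 in AAV-H19 and 84586 to 126403 in AAV-Null livers, and none of the 10 was at 0 in all libraries. The 14 Kupffer cell and macrophage markers summed to 205 to 287 CPM in AAV-H19 and 338 to 532 CPM in AAV-Null livers, with 7 of 14 lower and none higher by the test, where 6.07% of all genes were lower. With the length offset described next, 2 of the 14 were lower, where 0.804% of all genes were. None of the 14 was at 0 in all libraries, and fewer cells of a type and less RNA per cell cannot be told apart in whole tissue. The sums of endothelial, stellate, cholangiocyte, lymphocyte, neutrophil and erythroid markers overlapped between the groups, and the neutrophil gene Ngp was at 0 in every library. The lymphocyte sums barely did, with a highest AAV-H19 sum of 5.202 CPM and a lowest AAV-Null sum of 5.195 CPM. Of the markers tested, 1 of 10 hepatocyte, 1 of 11 endothelial and 2 of 7 cholangiocyte genes were higher, where 5.60% of all genes were. Lower were 1 of 11 endothelial and 1 of 7 lymphocyte genes. No stellate, neutrophil or erythroid marker passed. Libraries also differed by transcript length: over genes, a library's deviation from the mean correlated with transcript length at a Spearman's rho of 0.20 to 0.41 in AAV-H19 and -0.38 to -0.10 in AAV-Null livers. The part that these differences play in the results below was not tested. A second fit took out each library's length trend as an offset, and its log2 fold changes stand beside those of the first fit.

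Of the 40 genes, 5 rose in AAV-H19 livers (Atg13, Atg2b, Wipi1, Atg4c and Nbr1), 2 fell (Atg101 and Map1lc3a) and 33 did not pass the test (quasi-likelihood test of edgeR, p adjusted by Benjamini-Hochberg over all genes tested, threshold 0.05). The called share was 17.5%, against 11.7% of all 16672 genes. By direction, 934 genes (5.60%) were higher and 1012 (6.07%) lower over the whole table. With upper-quartile scaling these were 656 higher and 1557 lower over the whole table, and 2 higher (Atg2b and Wipi1) and 3 lower (Atg101, Map1lc3a and Gabarap) among the 40. An unadjusted p under 0.05 was reached by 15 of the 40 genes, or 37.5%, against 29.8% of all genes. The groups did not overlap in 15 genes, also 37.5%, against 23.7% of all genes: AAV-H19 livers lay above in 11, against 12.1% of all genes, and below in 4, against 11.7%. The median log2 fold change, AAV-H19 over AAV-Null, was 0.16 over the 40 genes and -0.020 over all genes tested. With the length offset 1 gene, Atg2b, passed and none was lower, where 2.21% of all genes passed (1.41% higher and 0.804% lower), and the median of the 40 was -0.10 against -0.053 for all genes. Without AAV-H19 25 none of the 40 passed, where 1.06% of all genes did, and without AAV-H19 27 none passed, where 0.660% did. The genes higher and lower among the 40 were 1 and 0 without AAV-H19 26, where 1.77% of all genes passed, and 1 and 1 without AAV-H19 28, where 4.07% did. They were 2 and 3 without AAV-Null 21 (11% of all genes passed) and 3 and 2 without AAV-Null 22 (11.4%). Without AAV-Null 23 they were 4 and 1 (10.8%), and without AAV-Null 24 they were 2 and 1 (6.89%).

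In 4 of the 9 roles all or nearly all genes had the same sign, which was not tested as a property of the role. All 5 genes of phagophore expansion and 6 of the 7 PI3-kinase genes had positive fitted changes, with medians of 0.80 and 0.35, whereas all 5 ATG8 genes and all 3 mitophagy receptors had negative ones, with medians of -0.54 and -0.39. Signs were mixed in the conjugation enzymes (2 positive, 4 negative), the ATG4 proteases (2 and 2), the ubiquitin-binding receptors (3 and 1) and the ULK complex (4 and 1). The median of the longest annotated transcripts was 5171 nt for phagophore expansion and 4929 nt for the PI3-kinase genes, against 1677 nt for the ATG8 genes and 1983 nt for the mitophagy receptors. With the length offset 4 of 5 expansion genes and 4 of 7 PI3-kinase genes were positive, and all 5 ATG8 genes and 3 mitophagy receptors remained negative. The offset did not level the shortest genes: the length bin that holds Map1lc3a, Gabarap and Atg101 had a median of -0.19 with it, beside -0.18, -0.13 and -0.40 for these 3 genes.

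**Figure D1:**
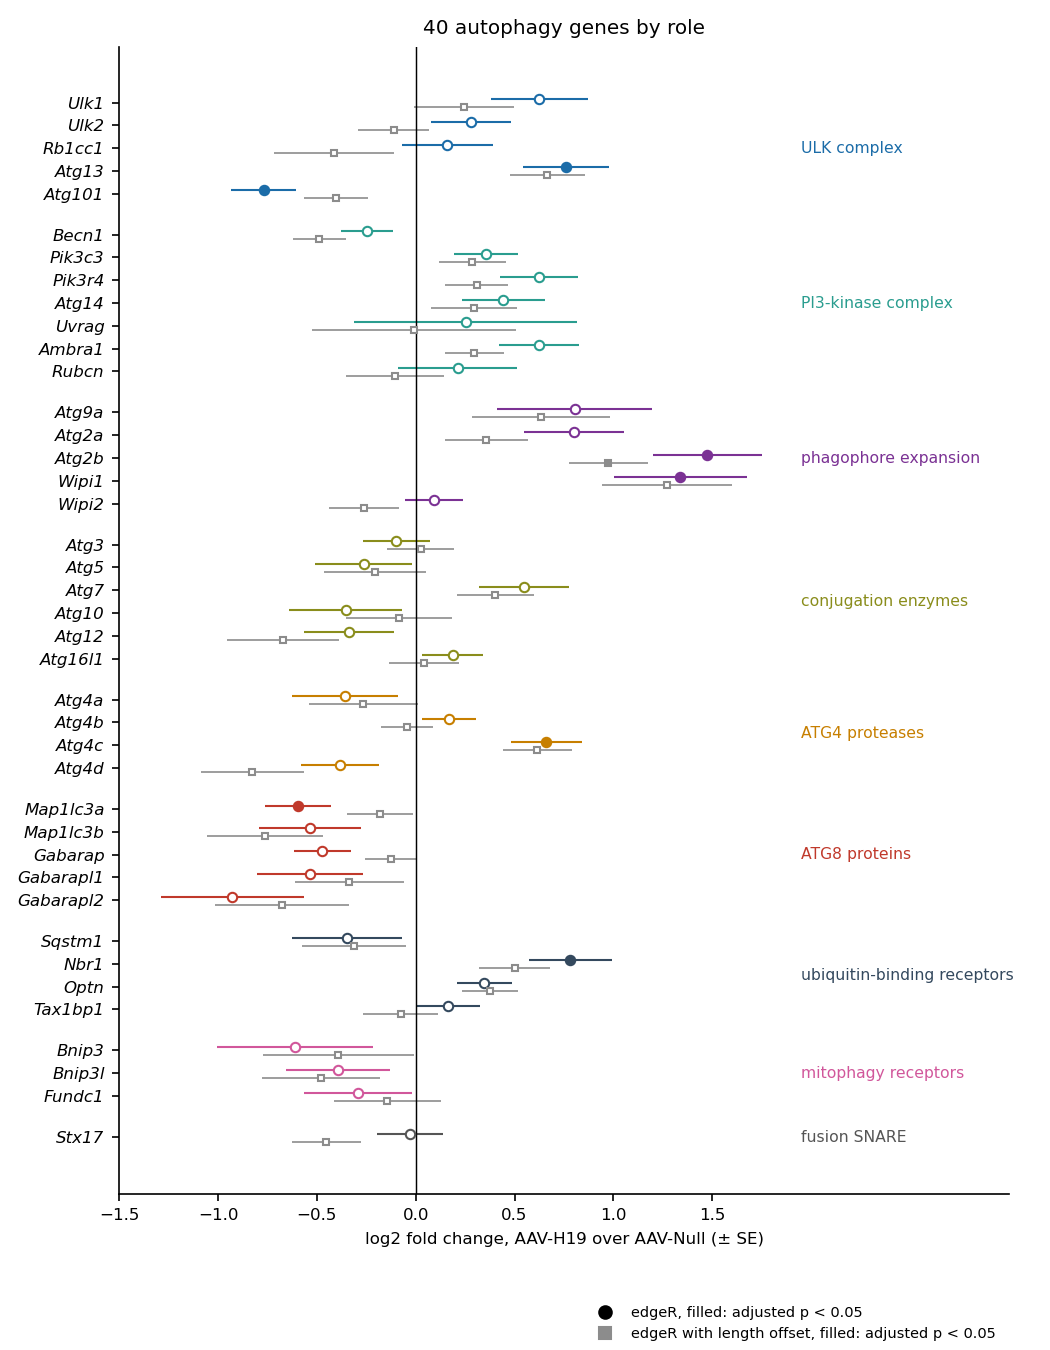
Log2 fold change of each of the 40 genes, AAV-H19 over AAV-Null livers, with its SE (n = 4 livers each); circles are the edgeR fit and grey squares the same fit with a length offset, filled where the adjusted p is under 0.05. Phagophore expansion genes lie to the right, with Atg2b at 1.48 and Wipi1 at 1.34, and all 5 ATG8 genes lie to the left of 0 in both fits.

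Across the 40 genes, which are not independent replicates and share their libraries, longer transcripts went with higher log2 fold changes at a Spearman's rho of 0.55, beside 0.50 over all 13538 protein-coding genes tested, and it was 0.13 with the offset. Of the 19 genes with a transcript of 4000 nt or more, 14 had positive and 5 negative fitted changes, and of the 8 under 2000 nt all were negative. Among all protein-coding genes ranked by length, the shortest bin of 677 genes, with a median length of 846 nt, had a median log2 fold change of -0.92, and the longest bin of 677 genes, with a median length of 9851 nt, had 0.55. Against the interquartile range of the genes in its own length bin, 21 of the 40 lay inside, 11 above and 8 below. By definition such a range has as many of the bin's genes inside as outside, and as many above as below. The split of the 40 was thus near that of genes at large. The 11 above were Atg13, Pik3r4, Ambra1, Atg9a, Atg2a, Atg2b, Wipi1, Atg7, Atg4c, Nbr1 and Optn, and the 8 below were Rb1cc1, Becn1, Atg12, Atg4d, Map1lc3b, Gabarapl2, Bnip3l and Stx17. Atg101 and Map1lc3a, the 2 genes called lower, lay inside. The length used is that of the longest annotated transcript, which need not be the form the liver makes.

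**Figure D2:**
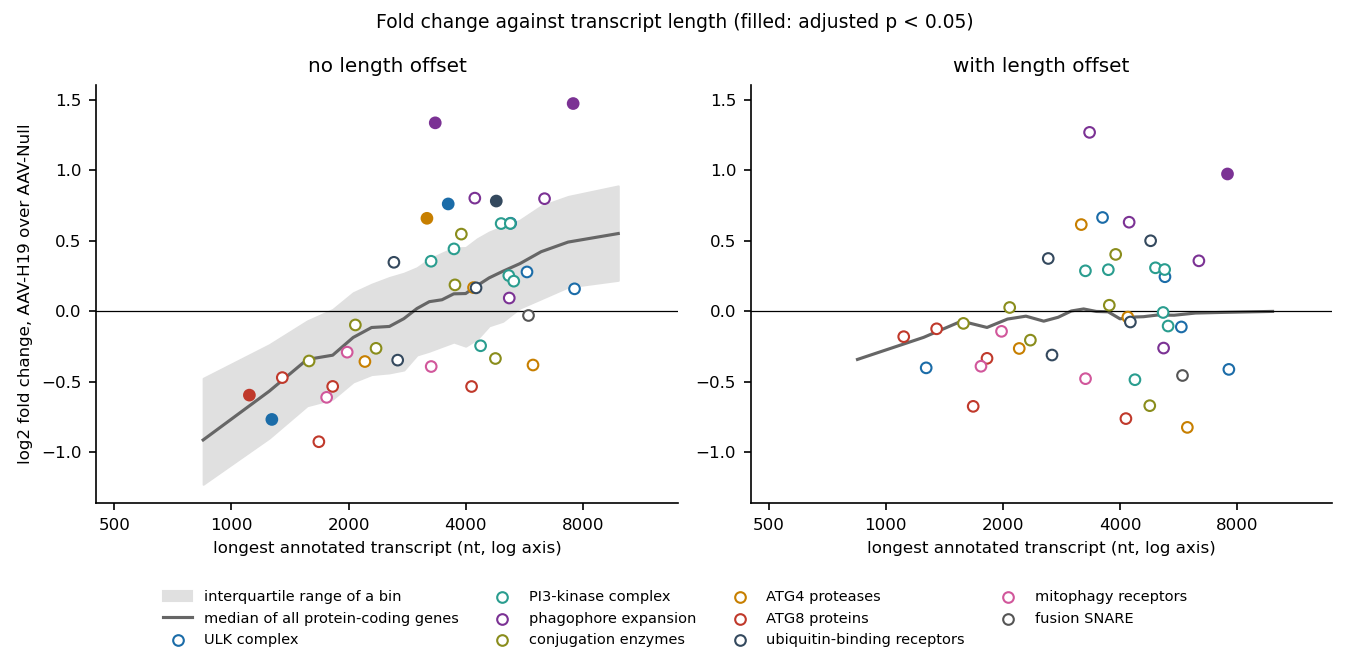
Log2 fold change, AAV-H19 over AAV-Null livers, against the longest annotated transcript in nt on a log axis, without (left) and with (right) the length offset; points are the 40 genes coloured by role and filled where the adjusted p is under 0.05. The grey line is the median of all protein-coding genes in 20 length bins and the band on the left their interquartile range. The left line climbs from -0.92 to 0.55, with 21 of the 40 genes inside the band, and the right line starts at -0.34, is at -0.19 in the second bin and -0.12 in the fourth, and lies between -0.071 and 0.016 in the other bins.

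In the ULK complex, Atg13 rose and Atg101, whose protein binds ATG13, fell. Atg13, the adaptor that joins the ULK kinases to their scaffold (ENSMUSG00000027244, chromosome 2, 91674618 to 91710576, minus strand of GRCm38), was at 67.4, 51.9, 57.3 and 59.1 CPM in AAV-H19 25, 26, 27 and 28 and at 39.4, 21.3, 41.7 and 36.6 CPM in AAV-Null 21, 22, 23 and 24. All AAV-H19 livers lay above all AAV-Null livers, and AAV-Null 22 was the lowest. Its log2 fold change was 0.76 ± 0.22 (SE, edgeR adjusted p = 0.0495), and with the length offset 0.67 ± 0.19 (edgeR adjusted p = 0.0862). Atg101, the HORMA-domain partner that stabilises ATG13 (ENSMUSG00000037204, chromosome 15, 101284272 to 101290945, plus strand), was at 14.6, 19.5, 18.3 and 20.5 CPM in AAV-H19 25, 26, 27 and 28 and at 32.4, 34.4, 30.9 and 26.6 CPM in AAV-Null 21, 22, 23 and 24. The groups did not overlap, with the AAV-H19 livers below, and the log2 fold change was -0.77 ± 0.17 (edgeR adjusted p = 0.0256). The longest transcripts are 3604 nt for Atg13 and 1270 nt for Atg101, and the offset brought Atg101 to -0.40 ± 0.16 (edgeR adjusted p = 0.186). Atg13 lost its call without any AAV-H19 library, AAV-Null 21 or AAV-Null 24 (edgeR adjusted p = 0.0599 to 0.136), and Atg101 without AAV-H19 25, 26 or 27 (edgeR adjusted p = 0.0661 to 0.0915).

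Atg101 lay inside the interquartile range of its own length bin (-0.90 to -0.24), and Atg13 lay above that of its own (-0.22 to 0.45). The promoters of this pair are shown because the fitted changes had opposite signs. Each is the 250 bases before the start of a RefSeq transcript, which can differ from the gene's end in the annotation above, 5′ to 3′ on the gene's strand in GRCm38.p6, at chr2:91710593-91710842 on the minus strand for Atg13 and chr15:101284051-101284300 on the plus strand for Atg101. Capitals would mark a GC box, GGGCGG on either strand, and neither window holds those letters. G and C make up 46.4% of the Atg13 window and 61.2% of the Atg101 window.
Atg13: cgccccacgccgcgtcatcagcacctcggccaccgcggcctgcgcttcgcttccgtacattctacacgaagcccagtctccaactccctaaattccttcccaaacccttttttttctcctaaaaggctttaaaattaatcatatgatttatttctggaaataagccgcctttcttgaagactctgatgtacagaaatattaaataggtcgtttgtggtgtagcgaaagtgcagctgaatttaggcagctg
Atg101: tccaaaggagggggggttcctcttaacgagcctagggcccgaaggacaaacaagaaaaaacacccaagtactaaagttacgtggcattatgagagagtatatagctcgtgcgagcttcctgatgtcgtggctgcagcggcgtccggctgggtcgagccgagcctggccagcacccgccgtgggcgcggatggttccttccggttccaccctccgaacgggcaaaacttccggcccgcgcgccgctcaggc

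The other 3 ULK genes did not pass. Ulk1, the main kinase of the complex, was at 89.6 to 139 CPM in AAV-H19 and 53.7 to 104 CPM in AAV-Null livers, with a log2 fold change of 0.62 ± 0.25 (edgeR adjusted p = 0.120). The groups overlapped because AAV-H19 28 was low, at 89.6 CPM, against 131 to 139 CPM in the other 3 AAV-H19 livers. Its paralog Ulk2 had 0.28 ± 0.20, and Rb1cc1, which encodes the scaffold FIP200, had 0.16 ± 0.23. With the length offset these 3 genes were at 0.24, -0.11 and -0.41, so the sign of Ulk2 and Rb1cc1 turned.

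None of the 7 PI3-kinase genes passed, and 6 had positive fitted changes. Pik3r4, which encodes the VPS15 pseudokinase that anchors the lipid kinase, had the smallest p, with 22.4, 18.3, 18.98 and 13.99 CPM in AAV-H19 25, 26, 27 and 28 and 13.2, 10.1, 13.997 and 10.6 CPM in AAV-Null 21, 22, 23 and 24. The groups met where AAV-H19 28 and AAV-Null 23 stood at almost the same level, and the log2 fold change was 0.62 ± 0.20 (SE, edgeR adjusted p = 0.0650), or 0.31 with the offset. Ambra1, a regulator that links BECN1 to ULK1, had a change of the same size, 0.62 ± 0.20 (edgeR adjusted p = 0.0699), and 0.30 with the offset. Its groups did not overlap, with 27.03 to 30.3 CPM in AAV-H19 and 13.5 to 23.8 CPM in AAV-Null livers. Without AAV-Null 23 Ambra1 passed (edgeR adjusted p = 0.0431).

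The lipid kinase gene Pik3c3 and Atg14, which directs the complex to autophagosome formation, also lay higher without overlap. Pik3c3 was at 14.1 to 15.7 CPM in AAV-H19 and 9.40 to 13.01 CPM in AAV-Null livers, a log2 fold change of 0.35 ± 0.16, and 0.29 with the offset. Atg14 was at 11.1 to 18.8 CPM in AAV-H19 and 8.31 to 10.8 CPM in AAV-Null livers, a log2 fold change of 0.44 ± 0.21, and 0.29 with the offset. AAV-H19 25 was the highest. Becn1, the scaffold of the complex, was the 1 gene of this group with a negative change, -0.25 ± 0.13 (edgeR adjusted p = 0.237), and its groups did not overlap: 38.9, 38.4, 41.2 and 40.2 CPM in AAV-H19 25 to 28 and 47.4, 46.7, 50.1 and 43.97 CPM in AAV-Null 21 to 24. With the offset Becn1 was at -0.49 ± 0.13 (edgeR adjusted p = 0.0785). Becn1 shares 3104 nt of exon with Cntd1 on the opposite strand, and since the strand setting of the counting is not given, it is not known whether reads of the 2 genes were counted apart. The same holds for the other opposite-strand overlaps named below and for further ones that are not named.

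Uvrag and Rubcn, whose proteins join a late-acting form of the complex (RUBCN as its inhibitor), gave no direction. Uvrag varied most within groups, with 23.9, 31.9, 11.8 and 10.6 CPM in AAV-H19 25, 26, 27 and 28 and 30.97, 6.001, 22.3 and 6.42 CPM in AAV-Null 21, 22, 23 and 24. Each group held 2 livers above 22 CPM and 2 below 12 CPM, the log2 fold change was 0.25 ± 0.56, and the value turned to -0.085 without AAV-H19 26. With the offset Uvrag was at -0.0095. Uvrag shares 1589 nt of exon with Gm45187 on the opposite strand. It also holds stretches of 214 to 345 nt that are at least 95% identical to transcripts of other genes. Rubcn had 0.21 ± 0.30, or -0.11 with the offset, with a range of 11.7 to 13.5 CPM in AAV-H19 and 5.73 to 16.3 CPM in AAV-Null livers.

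Phagophore expansion held the largest changes. Atg2b, which encodes a rod-shaped lipid transfer protein that feeds the growing membrane (ENSMUSG00000041341, chromosome 12, 105616136 to 105685211, minus strand), was at 40.3, 25.5, 38.3 and 21.3 CPM in AAV-H19 25, 26, 27 and 28 and at 14.9, 7.997, 12.999 and 9.14 CPM in AAV-Null 21, 22, 23 and 24. The lowest AAV-H19 liver lay above the highest AAV-Null liver. Its log2 fold change was 1.48 ± 0.28 (SE, edgeR adjusted p = 0.0184), a 2.78-fold difference, and 0.97 ± 0.20 with the length offset (edgeR adjusted p = 0.0432), where it was the 1 gene of the 40 to pass. It kept its call in 6 of 8 fits that left out a library and lost it without AAV-H19 25 or 27 (edgeR adjusted p = 0.0647 to 0.0738). Atg2b shares 383 nt of exon with Gskip on the opposite strand.

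Wipi1, a reader of phosphatidylinositol 3-phosphate that recruits ATG2 (ENSMUSG00000041895, chromosome 11, 109573331 to 109611967, minus strand), was at 35.7, 22.1, 32.7 and 30.9 CPM in AAV-H19 25, 26, 27 and 28 and at 9.95, 6.31, 10.8 and 20.998 CPM in AAV-Null 21, 22, 23 and 24. The groups came within about 1 CPM of each other, since AAV-Null 24 was well above the other 3 AAV-Null livers. The log2 fold change was 1.34 ± 0.34 (SE, edgeR adjusted p = 0.0361), and 1.27 ± 0.33 with the length offset (edgeR adjusted p = 0.0697), so the size hardly moved while the call ended. The call also ended without any AAV-H19 library, AAV-Null 21 or AAV-Null 23 (edgeR adjusted p = 0.0637 to 0.110), and over the 8 fits that left out a library the log2 fold change was 1.12 to 1.76. Wipi2, the paralog that binds ATG16L1, did not pass: it was at 82.9 to 102 CPM in AAV-H19 and 78.7 to 95.03 CPM in AAV-Null livers, with a log2 fold change of 0.093 ± 0.15 (edgeR adjusted p = 0.710), and -0.26 with the offset. The difference between the paralogs was not tested.

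The promoters of Atg2b and Wipi1 are shown because these were the 2 largest changes. They lie at chr12:105685242-105685491 and chr11:109611390-109611639, both on the minus strand, and capitals mark GC boxes (GGGCGG or its complement CCGCCC), of which Atg2b has 3 and Wipi1 has 8.
Atg2b: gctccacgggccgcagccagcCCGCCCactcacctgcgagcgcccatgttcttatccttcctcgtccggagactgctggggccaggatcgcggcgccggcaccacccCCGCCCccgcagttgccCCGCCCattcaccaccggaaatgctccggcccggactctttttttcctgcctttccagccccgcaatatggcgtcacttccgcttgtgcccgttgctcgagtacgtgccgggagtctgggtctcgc
Wipi1: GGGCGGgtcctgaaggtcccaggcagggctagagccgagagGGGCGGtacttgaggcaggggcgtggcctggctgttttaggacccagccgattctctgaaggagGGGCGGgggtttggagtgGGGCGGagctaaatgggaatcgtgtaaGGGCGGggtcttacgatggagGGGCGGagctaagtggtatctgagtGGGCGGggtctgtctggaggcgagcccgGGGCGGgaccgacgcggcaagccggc

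Of the 40 genes, 33 matched the RefSeq promoter table (not Atg12, Atg16l1, Becn1, Bnip3l, Map1lc3a, Pik3c3 and Rb1cc1), with 38 windows. A GC box was in 21 of the 38, or 55.3%, against 32.7% of all 32851 windows of 250 bases. CACGTG, the palindromic core that the autophagy regulator TFEB can bind, was in 5 of 38 (Atg3, Atg5, Atg7, Bnip3 and Rubcn), or 13.2%, against 6.02% of all windows. None of those 5 genes passed the expression test, where 11.7% of all genes did, and 5 genes are too few to differ from that share. The longer form TCACGTGA, which contains CACGTG, was in Atg3 alone, or 2.63%, against 0.785%. GTAAACA or its complement TGTTTAC, a core bound by FOXO factors, was in none of the 38 windows, against 3.17% of all. These are matches of letters and not binding sites.

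Atg2a and Atg9a pointed the same way as Atg2b without passing. Atg2a, the paralog of Atg2b, was at 94.3, 59.3, 80.8 and 60.1 CPM in AAV-H19 25, 26, 27 and 28 and at 49.9, 24.7, 47.01 and 47.7 CPM in AAV-Null 21, 22, 23 and 24. The groups did not overlap, AAV-Null 22 was the lowest, and the log2 fold change was 0.80 ± 0.25 (edgeR adjusted p = 0.0670), or 0.36 with the offset. Atg9a, the transmembrane lipid scramblase of the pathway, had a log2 fold change of 0.80 ± 0.39 (edgeR adjusted p = 0.202) and 0.63 with the offset, with 38.9 to 56.9 CPM in AAV-H19 and 8.35 to 41.9 CPM in AAV-Null livers. The overlapping transcript Gm29253 shares 1073 nt of near-identical sequence with Atg9a on the same strand. In AAV-Null 22 Gm29253 held 1794 units against 590 for Atg9a, while the other 7 libraries gave Gm29253 1 to 23 units. Whether those 1794 units are reads of Atg9a was not tested. With Atg9a and Gm29253 added, the livers were at 57.01, 46.4, 46.9 and 38.9 CPM in AAV-H19 25 to 28 and at 32.6, 33.7, 42.1 and 25.4 CPM in AAV-Null 21 to 24. In the fit that sums every chain of overlapping genes, where Abcb6 joins them, the log2 fold change was -0.047.

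**Figure D3:**
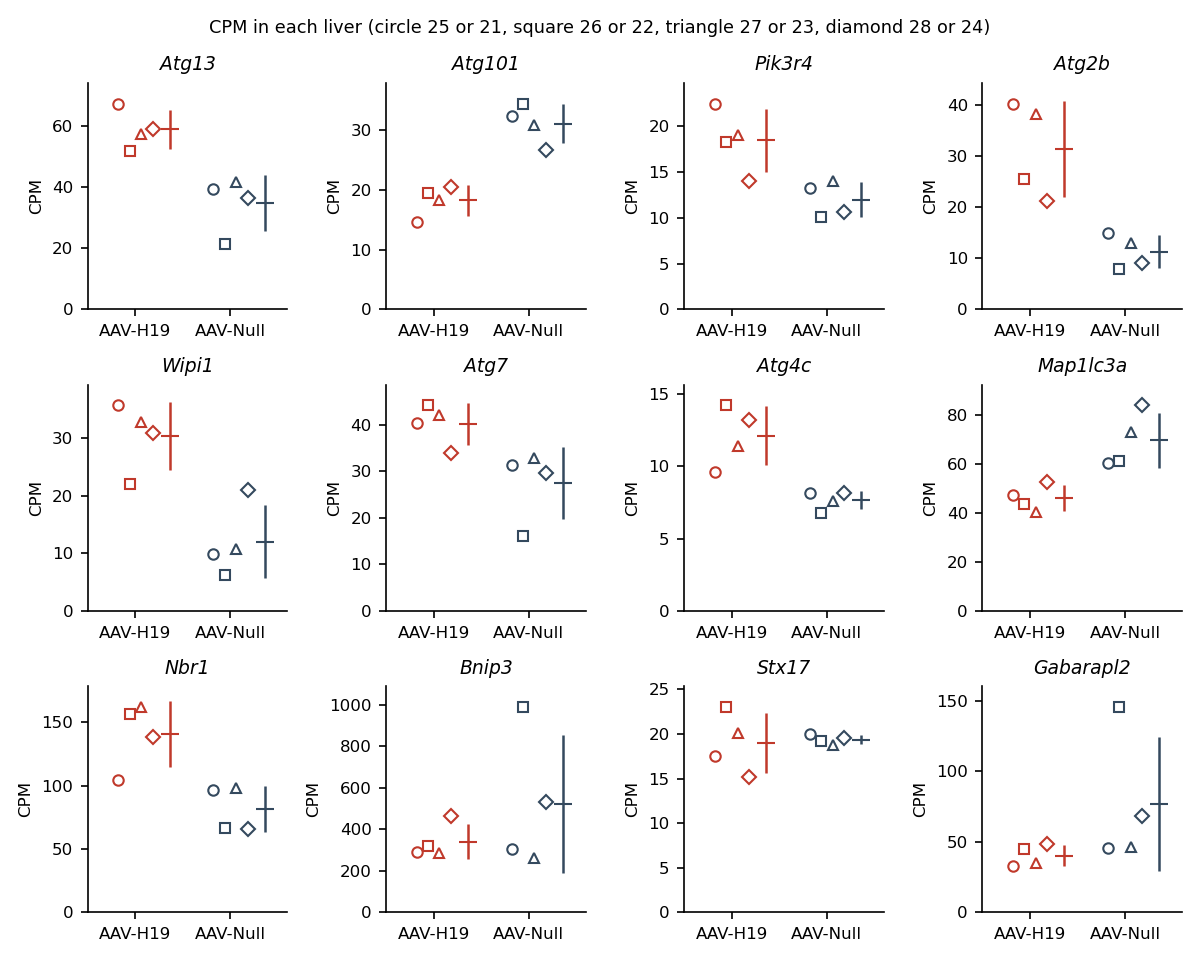
CPM of 12 genes in each liver, AAV-H19 left and AAV-Null right in each panel, with the mean and SD (bar, n = 4 each) beside the points. Atg13, Atg2b, Wipi1, Atg4c and Nbr1 are higher and Atg101 and Map1lc3a lower without overlap, while Bnip3 and Gabarapl2 spread widely in AAV-Null livers, with AAV-Null 22 the highest.

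None of the 6 conjugation enzymes passed. Atg7, the E1-like enzyme that activates ATG12 and the ATG8 proteins, had the smallest p, with 40.4, 44.2, 42.03 and 33.96 CPM in AAV-H19 25, 26, 27 and 28 and 31.3, 16.1, 32.9 and 29.6 CPM in AAV-Null 21, 22, 23 and 24. The groups did not overlap, the nearest livers being AAV-H19 28 and AAV-Null 23, and the log2 fold change was 0.55 ± 0.23 (SE, edgeR adjusted p = 0.138), or 0.40 with the offset. Atg3 and Atg10, the E2-like enzymes for ATG8 and ATG12, had -0.10 ± 0.17 and -0.35 ± 0.28. Atg5 and Atg12, which are joined to each other, had -0.26 ± 0.25 and -0.34 ± 0.23, and Atg16l1, which places the conjugate on the membrane, had 0.19 ± 0.16. Their edgeR adjusted p were 0.354 to 0.735, and every one of these 5 genes overlapped between groups. With the offset Atg3 was at 0.026, Atg10 at -0.087, Atg5 at -0.21, Atg12 at -0.67 and Atg16l1 at 0.042. Atg5 and Atg12 were highest in AAV-Null 22 and 24, with 78.02 and 56.9 CPM of Atg5 and 59.9 and 66.9 CPM of Atg12, against 35.8 to 40.8 CPM for either gene in AAV-Null 21 and 23.

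Among the ATG4 proteases, which cut ATG8 precursors and later release ATG8 from lipid, Atg4c rose and the other 3 did not pass. Atg4c (ENSMUSG00000028550, chromosome 4, 99193934 to 99259787, plus strand) was at 9.59, 14.2, 11.4 and 13.2 CPM in AAV-H19 25, 26, 27 and 28 and at 8.12, 6.79, 7.57 and 8.14 CPM in AAV-Null 21, 22, 23 and 24. All AAV-H19 livers lay above all AAV-Null livers, and the log2 fold change was 0.66 ± 0.18 (SE, edgeR adjusted p = 0.0440) and 0.62 ± 0.17 with the length offset (edgeR adjusted p = 0.0858). It lost the call whichever of the 8 libraries was left out (edgeR adjusted p = 0.0603 to 0.120), with a log2 fold change of 0.58 to 0.76. Atg4b, the most active family member on LC3, was at 23.1 to 25.8 CPM in AAV-H19 and 20.4 to 23.5 CPM in AAV-Null livers, with a log2 fold change of 0.17 ± 0.14. Atg4a and Atg4d had -0.36 ± 0.27 and -0.38 ± 0.20. With the offset Atg4b was at -0.043, Atg4a at -0.27 and Atg4d at -0.83. Atg4a has a copy, Atg4a-ps, that is 99.3% identical over 2115 nt and can share its reads, and Atg4d shares 1405 nt of exon with Kri1 on the opposite strand.

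All 5 ATG8 genes were lower in fitted value, and Map1lc3a fell. Map1lc3a, which encodes LC3A (ENSMUSG00000027602, chromosome 2, 155276297 to 155278073, plus strand), was at 47.5, 43.7, 40.6 and 52.7 CPM in AAV-H19 25, 26, 27 and 28 and at 60.4, 61.4, 73.03 and 84.1 CPM in AAV-Null 21, 22, 23 and 24. The groups did not overlap, and the log2 fold change was -0.60 ± 0.17 (SE, edgeR adjusted p = 0.0463). Its longest transcript is 1112 nt, the shortest of the 40, and with the length offset the value was -0.18 ± 0.17 (edgeR adjusted p = 0.562). The call also ended without any AAV-H19 library, AAV-Null 23 or AAV-Null 24 (edgeR adjusted p = 0.0699 to 0.149).

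Gabarap, the founding member of its subfamily, was at 152, 161, 155 and 171 CPM in AAV-H19 25, 26, 27 and 28 and at 199, 254, 216 and 219 CPM in AAV-Null 21, 22, 23 and 24. These groups did not overlap either, and the log2 fold change of -0.47 ± 0.15 missed the threshold (edgeR adjusted p = 0.0609) but passed with DESeq2 (adjusted p = 0.00780), with upper-quartile scaling, with a filter of 1 CPM in 4 samples and with values divided by 4. With the length offset it was -0.13 ± 0.13 (edgeR adjusted p = 0.608). Gabarapl1 had -0.53 ± 0.27, or -0.34 with the offset, and its groups overlapped, with 132 to 331 CPM in AAV-H19 and 297 to 413 CPM in AAV-Null livers. AAV-H19 28 was the lowest. Gabarapl1 shares 570 nt of exon with 1700101I11Rik on the opposite strand. Map1lc3b, which encodes the LC3B protein commonly used to mark autophagosomes, had -0.54 ± 0.26, with 66.6 to 94.5 CPM in AAV-H19 and 63.6 to 158 CPM in AAV-Null livers. With a transcript of 4138 nt it was the longest of the 5, and with the offset its log2 fold change was -0.76 ± 0.29. Without AAV-Null 21, the AAV-Null liver with the lowest value, Map1lc3b passed at -0.74 (edgeR adjusted p = 0.0415). Gabarapl2 had the most negative change of the 40, -0.93 ± 0.36 (edgeR adjusted p = 0.116), which rested on AAV-Null 22 at 146 CPM, and without that liver the change was -0.42. With the offset it was -0.68. Map1lc3b and Gabarapl2 have 4 and 3 processed pseudogenes that are 96.1% to 99.6% identical over 280 to 352 nt, so these 2 values are uncertain.

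Per kb of transcript, the summed level of the 5 ATG8 genes was 341 ± 34.2 CPM per kb in AAV-H19 and 500.4 ± 49.7 CPM per kb in AAV-Null livers (SD, n = 4 each). The ranges, 298 to 372 and 471 to 574, did not overlap. Gabarapl1 and Gabarap made up most of it, with 39.6 ± 10.8% and 35.1 ± 5.14% in AAV-H19 livers, against 40.1 ± 6.18% and 32.8 ± 1.32% in AAV-Null livers. For each of the 5 genes the ranges of its share over the livers overlapped between the groups. The sum is not free of the length trend described above.

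**Figure D4:**
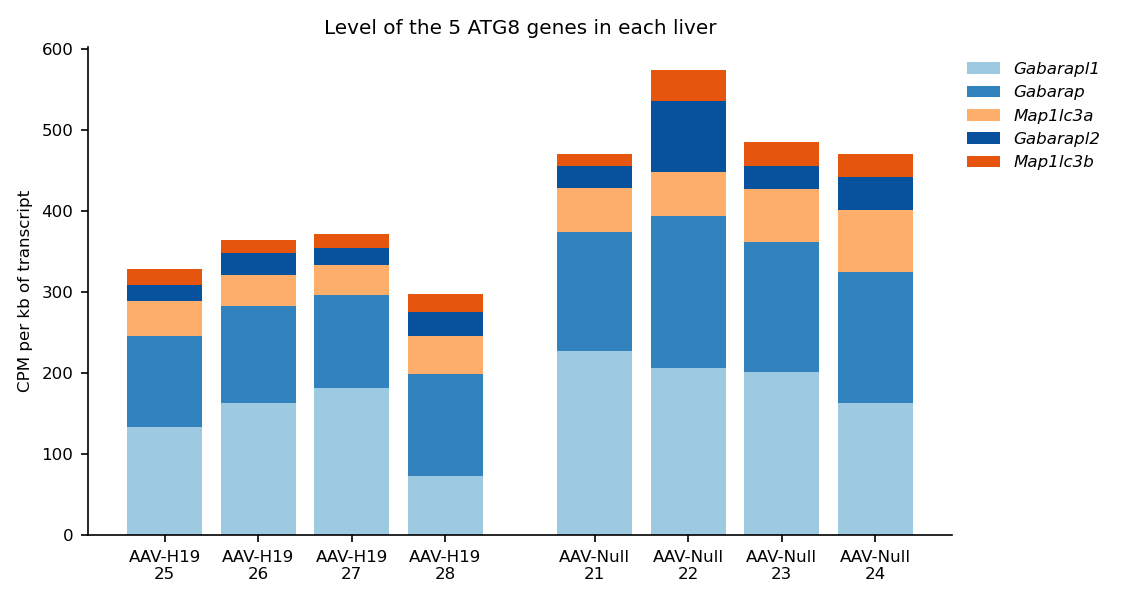
Level of the 5 ATG8 genes in CPM per kb of transcript, stacked for each liver, AAV-H19 25 to 28 left and AAV-Null 21 to 24 right. The AAV-H19 stacks reach 298 to 372 and the AAV-Null stacks 471 to 574 CPM per kb, with Gabarapl1 and Gabarap the largest layers except that Gabarapl1 is short in AAV-H19 28.

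Among the ubiquitin-binding receptors, Nbr1 rose and Sqstm1, Optn and Tax1bp1 did not pass. Nbr1, a receptor for ubiquitinated cargo and peroxisomes (ENSMUSG00000017119, chromosome 11, 101552149 to 101581951, plus strand), was at 105, 157, 162 and 139 CPM in AAV-H19 25, 26, 27 and 28 and at 96.9, 66.2, 98.2 and 65.6 CPM in AAV-Null 21, 22, 23 and 24. The groups did not overlap, AAV-H19 25 being the nearest to the AAV-Null livers, and the log2 fold change was 0.78 ± 0.21 (SE, edgeR adjusted p = 0.0434) and 0.50 ± 0.18 with the length offset (edgeR adjusted p = 0.147). It lost the call without any AAV-H19 library, AAV-Null 22 or AAV-Null 24 (edgeR adjusted p = 0.0565 to 0.133). Optn, a receptor in mitophagy and the clearing of bacteria, lay higher without overlap, at 76.04 to 95.99 CPM in AAV-H19 and 63.2 to 70.1 CPM in AAV-Null livers, with 0.35 ± 0.14 (edgeR adjusted p = 0.130) and 0.37 ± 0.14 with the offset.

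Sqstm1 encodes p62, a receptor that is itself degraded by autophagy, and its gene was the most abundant of the 40 per kb in both groups. It was at 531, 807, 720.1 and 952 CPM in AAV-H19 25, 26, 27 and 28 and at 1306, 595, 1167 and 763 CPM in AAV-Null 21, 22, 23 and 24. The groups overlapped widely, with AAV-Null 21 and 23 the highest of the 8, and the log2 fold change was -0.35 ± 0.28 (edgeR adjusted p = 0.437), or -0.31 with the offset. Sqstm1 shares 580 nt of exon with Mrnip on the opposite strand. Tax1bp1, another receptor of ubiquitinated cargo, had 0.17 ± 0.16, or -0.077 with the offset.

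The 3 mitophagy receptors had negative fitted changes, none past the test. Bnip3, a hypoxia-induced receptor of the outer mitochondrial membrane, had the smallest p, with 292, 319, 287 and 466 CPM in AAV-H19 25, 26, 27 and 28 and 305, 990.1, 261 and 531 CPM in AAV-Null 21, 22, 23 and 24. AAV-Null 22 alone exceeded all other livers widely, AAV-Null 21 and 23 lay inside the AAV-H19 range or below it, and the log2 fold change was -0.61 ± 0.40 (SE, edgeR adjusted p = 0.330), or -0.11 without AAV-Null 22. Its paralog Bnip3l had -0.39 ± 0.26 and Fundc1, a receptor regulated by phosphorylation, had -0.29 ± 0.27, and without AAV-Null 22 these were -0.10 and -0.10. With the offset Bnip3 was at -0.39, Bnip3l at -0.48 and Fundc1 at -0.14. Bnip3 has 3 and Bnip3l 1 near-identical pseudogene copies, which leaves both values uncertain. Bnip3 also shares 504 nt of exon with Gm45507 on the opposite strand.

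Stx17, the SNARE of the closed autophagosome, had the smallest fitted change of the 40 in the first fit, with 17.5, 23.1, 20.1 and 15.2 CPM in AAV-H19 25, 26, 27 and 28 and 19.998, 19.2, 18.7 and 19.6 CPM in AAV-Null 21, 22, 23 and 24. The AAV-Null livers lay close together, inside the AAV-H19 range, and the log2 fold change was -0.029 ± 0.17 (SE, edgeR adjusted p = 0.926). With the length offset it was -0.45 ± 0.17 (edgeR adjusted p = 0.166).

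Per kb of transcript the order of levels was alike at the top in both groups, where Sqstm1, Bnip3, Gabarapl1, Gabarap and Map1lc3a ranked 1 to 5. Sqstm1 averaged 282 ± 65.8 CPM per kb in AAV-H19 and 358 ± 125 CPM per kb in AAV-Null livers (SD, n = 4 each), and Bnip3 averaged 194 ± 47.9 CPM per kb in AAV-H19 and 297 ± 190.2 CPM per kb in AAV-Null livers. The ranges of mean ± SD of these neighbours overlapped in both groups. Atg2b was the lowest of the 40 in AAV-Null livers, at rank 40, and was at rank 32 in AAV-H19 livers, with 4.15 ± 1.24 CPM per kb in AAV-H19 and 1.49 ± 0.431 CPM per kb in AAV-Null livers. The 40 genes together held 0.270% to 0.328% of all units in AAV-H19 and 0.331% to 0.391% in AAV-Null livers.

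Single livers stood at the end of their group for many of the genes. AAV-Null 22 was the highest or lowest AAV-Null liver for 30 of the 40 genes and AAV-H19 28 the highest or lowest AAV-H19 liver for 30, against 11 to 22 for each of the other 6 libraries. AAV-Null 22 and 24 were also the libraries with the strongest negative relation to transcript length, both at -0.38.

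The rest of the pathway, 91 further genes in 5 lists, gave 6 higher and 2 lower genes, or 8.79% against 11.7% of all genes, with a median log2 fold change of 0.20. In nutrient and energy sensing, upstream of ULK1, Mtor, Tsc1 and Sesn2 rose, Lamtor4 fell, and 25 of 29 did not pass. Mtor, the kinase that represses ULK1, was at 80.02, 73.7, 74.1 and 51.3 CPM in AAV-H19 25 to 28 and 45.6, 46.4, 41.8 and 40.9 CPM in AAV-Null 21 to 24, with a log2 fold change of 0.68 ± 0.17 (SE, edgeR adjusted p = 0.0355). Tsc1 and Sesn2, whose proteins restrain mTORC1, had 0.80 ± 0.18 and 0.99 ± 0.26 (edgeR adjusted p = 0.0285 and 0.0391), and Lamtor4, a subunit of the lysosomal Ragulator scaffold of mTORC1, had -0.90 ± 0.15 (edgeR adjusted p = 0.0134). The 3 rises thus held the kinase and 2 genes whose proteins restrain it.

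Among 13 transcriptional regulators Foxo1 and Ppara, transcription factors that can activate autophagy genes, rose, with log2 fold changes of 1.05 ± 0.25 and 1.23 ± 0.24 (edgeR adjusted p = 0.0329 and 0.0212). The other 11, with Tfeb, the main activator of lysosomal and autophagy genes, among them, did not pass. Of 16 tethering and fusion genes Vamp8, the lysosomal SNARE that pairs with STX17, fell, with 103, 106, 96.3 and 125 CPM in AAV-H19 25 to 28 and 146, 258, 144 and 199.99 CPM in AAV-Null 21 to 24 and a log2 fold change of -0.80 ± 0.21 (edgeR adjusted p = 0.0422). Of 19 other cargo receptors Bcl2l13, a mitophagy receptor, rose by 0.79 ± 0.16 (edgeR adjusted p = 0.0219), and none of 14 other autophagosome formation genes passed. None of the 91 passed with the length offset, where Mtor was at 0.095, Tsc1 at 0.27, Sesn2 at 0.90, Lamtor4 at -0.42, Foxo1 at 0.45, Ppara at 1.12, Vamp8 at -0.68 and Bcl2l13 at 0.29. Without AAV-H19 25 or without AAV-H19 27 none of these 8 genes passed (edgeR adjusted p = 0.0583 to 0.134).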

How the data were processed

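The authors deposited a table of estimated counts (expected counts) per Ensembl gene for 8 livers, with no normalization visible in the values; HISAT and StringTie are named, per the submitters' processing notes, and per the labels' protocols the poly(A) libraries were strand-specific. For versions, build, annotation and strand setting: not given in the sources used here. All values were whole, but low values piled up at multiples of 4 (820 to 990 genes at 4 per library, against 124 to 164 at 5), so a unit is not a read and counting error is larger than units would give. Columns were matched to samples by name, with 0 left over; replicate numbers name single livers, and p-values therefore cover the spread between these livers, which may be partly technical. No library was a copy of another (chi-square over its degrees of freedom at least 28 for values divided by 4).

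Symbols, positions and lengths are from GENCODE M21 (GRCm38). All 55450 identifiers and all 40 symbols matched; of 92 other pathway genes, Vamp7 did not. Genes were filtered with filterByExpr (minimum count 10, minimum total 15), scaled by TMM and tested with edgeR 4.0.16 (glmQLFit, robust, glmQLFTest; R 4.3.3) at an adjusted p of 0.05. An SE is the fold change over the square root of F. The length offset is a natural spline of 5 degrees of freedom, fitted per library to log2 CPM (prior count 2) minus the gene mean. Near copies were sought with blastn at 95% identity over 200 nt. The procedure was tested on simulated data for this comparison: over 16177 genes it found 15% of 2-fold and 87% of 4-fold changes, with 6 false calls. Only 200 genes were changed, a smaller share than the 11.7% called in the deposited data, so these rates need not hold for the 40 genes. With a simulated length trend over 16063 genes, false calls numbered 696 without the offset and 8 with it. That trend was a straight line in log2 length, the same in every AAV-H19 library, which the spline can fit. It therefore does not show how well the offset works on the real libraries.

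The 40 genes, the lists and the alternatives were chosen with earlier results of these data known, the length trend included. Every library's value is given for genes past an adjusted p of 0.05 with or without the offset and, in each role without any, for the gene with the smallest p. Other values by library were added after they were seen. Up to 4 called genes per further list and direction are named. Alternatives were DESeq2 1.42.0, limma-voom (limma 3.58.1), DESeq2 and upper-quartile size factors, no filter, 1 CPM in 4 samples, values divided by 4, overlapping genes summed, the length offset, and each library left out.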

Additional observations from a re-analysis of the deposited data

Results flagged for a closer look

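Over 49 named genes and both groups, 98 sets of 4 livers were examined for a liver far from the other 3, and 5 were found; chance gives about 1 in 20 sets. Ulk1 in AAV-H19 28 was at 89.6 CPM, against 131 to 139 CPM in the other AAV-H19 livers. Atg10, the E2-like enzyme for ATG12, was at 4.65 CPM in AAV-H19 28, against 3.12 to 3.37 CPM. Atg14 in AAV-H19 25 was at 18.8 CPM, against 11.1 to 11.98 CPM, and without that liver its log2 fold change was 0.24. Atg2a in AAV-Null 22 was at 24.7 CPM, against 47.01 to 49.9 CPM in its group, and with it left out the log2 fold change was 0.61. Wipi2 in AAV-Null 24 was at 95.03 CPM, against 78.7 to 80.7 CPM.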

How the results depend on the processing

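No paired analysis was possible because each liver has its own number and the labels pair none. The counts of the 40 genes that were higher and lower (5 and 2) were 1 and 0 with the length offset and 8 and 4 with DESeq2. They were 2 and 1 with no filter, and 2 and 3 with upper-quartile factors. Leaving out a library gave 0 to 4 higher and 0 to 3 lower. Of all genes, 11.7% passed in the first fit, 2.21% with the offset, 21.9% with DESeq2, 6.13% with no filter and 13.3% with upper-quartile factors. The share was 17.7% with 1 CPM in 4 samples, 16.1% with values divided by 4, and 0.66% to 11.4% with a library left out. Counts in the 91 further genes (6 and 2) were 0 and 0 with the offset, 14 and 8 with DESeq2, 8 lower with upper-quartile factors, 5 lower with 1 CPM in 4 samples and 4 lower with values divided by 4; leaving out a library gave 0 to 6 higher and 0 to 3 lower. The median log2 change of the 40 (0.16) was -0.10 with the offset, 0.056 with upper-quartile factors, which moved the median of all genes to -0.13, and 0.068 to 0.15 with a library left out. H19 kept its call in all 17 alternatives. Signs turned with the offset for Ulk2 (-0.11), Rb1cc1 (-0.41), Uvrag (-0.0095), Rubcn (-0.11), Wipi2 (-0.26), Atg3 (0.026), Atg4b (-0.043) and Tax1bp1 (-0.077), and with upper-quartile factors for Wipi2 (-0.015). With overlapping genes summed, the chain of Atg9a, Gm29253 and Abcb6 was at -0.047, which is not a value of Atg9a alone. With a library left out, signs turned for Uvrag (-0.085 to 0.76), Atg3 (-0.17 to 0.034) and Stx17 (-0.13 to 0.067). No gene whose sign turned had passed the test. The 7 called genes kept their direction in every alternative, and all 7 kept their calls with DESeq2, limma-voom, DESeq2 size factors, 1 CPM in 4 samples, values divided by 4 and overlapping genes summed. The cause of these shifts was not tested. In simulation 15% of 2-fold changes were recovered with 4 livers a group. That simulation changed 200 genes, a smaller share than the 11.7% called in the first fit, so the rate need not hold for the 40 genes.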
